A study of Rattus norvegicus with 4 samples.

Results

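The solute carriers that move inorganic ions, phosphate and metals were followed in the small intestine of rats that drank compost extract. Members were chosen by name: every gene probe whose gene name on the array began with Slc4a, Slc8a, Slc9a, Slc12a, Slc13a, Slc20a, Slc24a, Slc26a, Slc30a, Slc31a, Slc34a, Slc39a or Slc41a. These were 107 probes for 81 genes. A probe counted as measured if 2 or more of the 4 arrays showed it well above background by the scanner software's flag, which held for 78 probes and 60 genes, among 24313 genes or unnamed transcripts measured in all. The remaining 21 genes were too dim to compare.

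The compost group was 2 male Wistar rats, an outbred stock, that drank tap water with compost extract at 1% (v/v) for 12 weeks, beginning when they were 3 weeks old. The extract was aerobically fermented compost diluted in water and incubated hot with air. The control group was 2 male Wistar rats of the same age that drank tap water without extract. Small intestine without Peyer's patches, the lymphoid follicle clusters of the gut wall, was taken from each rat, and 1 array was run per rat, so that p-values measure the spread between single rats. The labels do not name the segment of small intestine.

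Solute carriers are membrane proteins that carry small molecules across a membrane, usually by exchange or by coupling to the gradient of another ion. In the small intestine, sodium-proton and chloride-bicarbonate exchangers of the brush border absorb salt, sodium-coupled carriers take up phosphate and sulfate, and chloride enters the basal side of secreting cells with sodium and potassium. The Slc39a family brings zinc and related metals into the cytosol, and the Slc30a family moves zinc out of it, into vesicles or out of the cell. The zinc-sensing factor MTF1 acts through the metal response element, and the zinc exporter gene Slc30a1 is a textbook target of it.

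The metal response element was therefore looked for upstream of the carriers as the letters TGCACNC or TGCGCNC on either strand. Among measured members the search covered the 46 with a promoter sequence. Slc20a1, Slc39a4, Slc39a14 and Slc30a10 had no such sequence and were not searched. In the 250 bases before the start of transcription, Slc30a1 had 2 matches and Slc30a4 had 2. Both genes export zinc from the cytosol and differed between the groups in opposite directions, so their upstream sequences are shown. They are from RefSeq on GRCr8 and read 5′ to 3′ on the strand of the gene, with the matches in capitals. Each match lies on the opposite strand, so that it reads here as its reverse complement.
Slc30a1, chr13:106021769-106022018, + strand: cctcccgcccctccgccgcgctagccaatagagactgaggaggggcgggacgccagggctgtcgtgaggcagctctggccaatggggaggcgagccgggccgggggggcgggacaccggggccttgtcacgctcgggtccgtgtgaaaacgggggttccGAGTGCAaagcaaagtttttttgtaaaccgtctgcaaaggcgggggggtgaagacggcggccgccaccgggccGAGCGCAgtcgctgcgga
Slc30a4, chr3:130228889-130229138, - strand: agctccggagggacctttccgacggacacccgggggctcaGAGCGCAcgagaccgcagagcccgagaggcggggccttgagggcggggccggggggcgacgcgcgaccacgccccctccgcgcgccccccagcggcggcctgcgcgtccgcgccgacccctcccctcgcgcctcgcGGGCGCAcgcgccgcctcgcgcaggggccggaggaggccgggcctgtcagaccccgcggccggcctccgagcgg
The matches begin 91 and 18 bases before the start in Slc30a1 and 210 and 74 bases before it in Slc30a4. At least 1 match was found in 20.6% of the 33469 promoters in the table, and 2 or more in 4.90%. By gene, at least 1 match was found in 19 of the 46 measured members in the table and in 7 of its 14 measured zinc carriers. The shares of promoters and of genes are not on the same unit, since a gene counted if any of its promoters had a match. A match is a run of letters and not a shown binding site.

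All values are spot intensities of a one-colour array. A signal of 1 is the 75th percentile of gene probes on that array, and a log2 difference is compost minus control with the standard error (SE) of the limma model. Where a gene had several measured probes, the one with the brightest mean stands for it. Signals of different probes are not compared. The median spot intensity before scaling was 113 and 80.8 on the compost arrays and 88.4 and 87.2 on the control arrays. The share of gene spots flagged as well above background was 71.0% and 66.5% on the compost arrays and 68.3% and 70.7% on the control arrays. The compost arrays agreed less closely than the control arrays: for the 60 members the median SD between replicates was 0.31 log2 units in compost and 0.17 in control, and for all genes it was 0.22 and 0.13.

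No member passed limma's test at an adjusted p of 0.05 over the 28415 probes tested, and neither did any other probe (0.0% called). The lowest adjusted p of a member was 0.9999 by limma. An exact two-sided permutation test of 2 rats against 2 cannot go below 0.333. What follows is therefore a description of the measured values.

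Over the 60 measured members, 23 were higher and 37 lower in compost, with a median log2 difference of -0.08 against -0.02 over all genes. The difference was under 0.5 log2 units in 52 of them. A gene is called separate here where the groups did not overlap. In 5 members (8.33%) the groups were separate with compost higher, which held for 12.7% of all genes. In 12 members the groups were separate with compost lower, which held for 15.2% of all genes. An unadjusted limma p under 0.05 was found for 4 members, Slc39a14, Slc13a5, Slc4a8 and Slc20a1, and for 3.31% of all genes. Of the 12 alternative settings with a p for members, Slc39a14 was under 0.05 in 12, Slc13a5 and Slc4a8 in 9 each and Slc20a1, by either probe, in 8. Without control replicate 1 or without compost replicate 1, Slc39a14 was the one of these 4 that remained, and with the replicate block Slc39a14 and Slc13a5 remained. No member was dim on both arrays of one group, so none entered the comparison only through the other group.

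**Figure D1:**
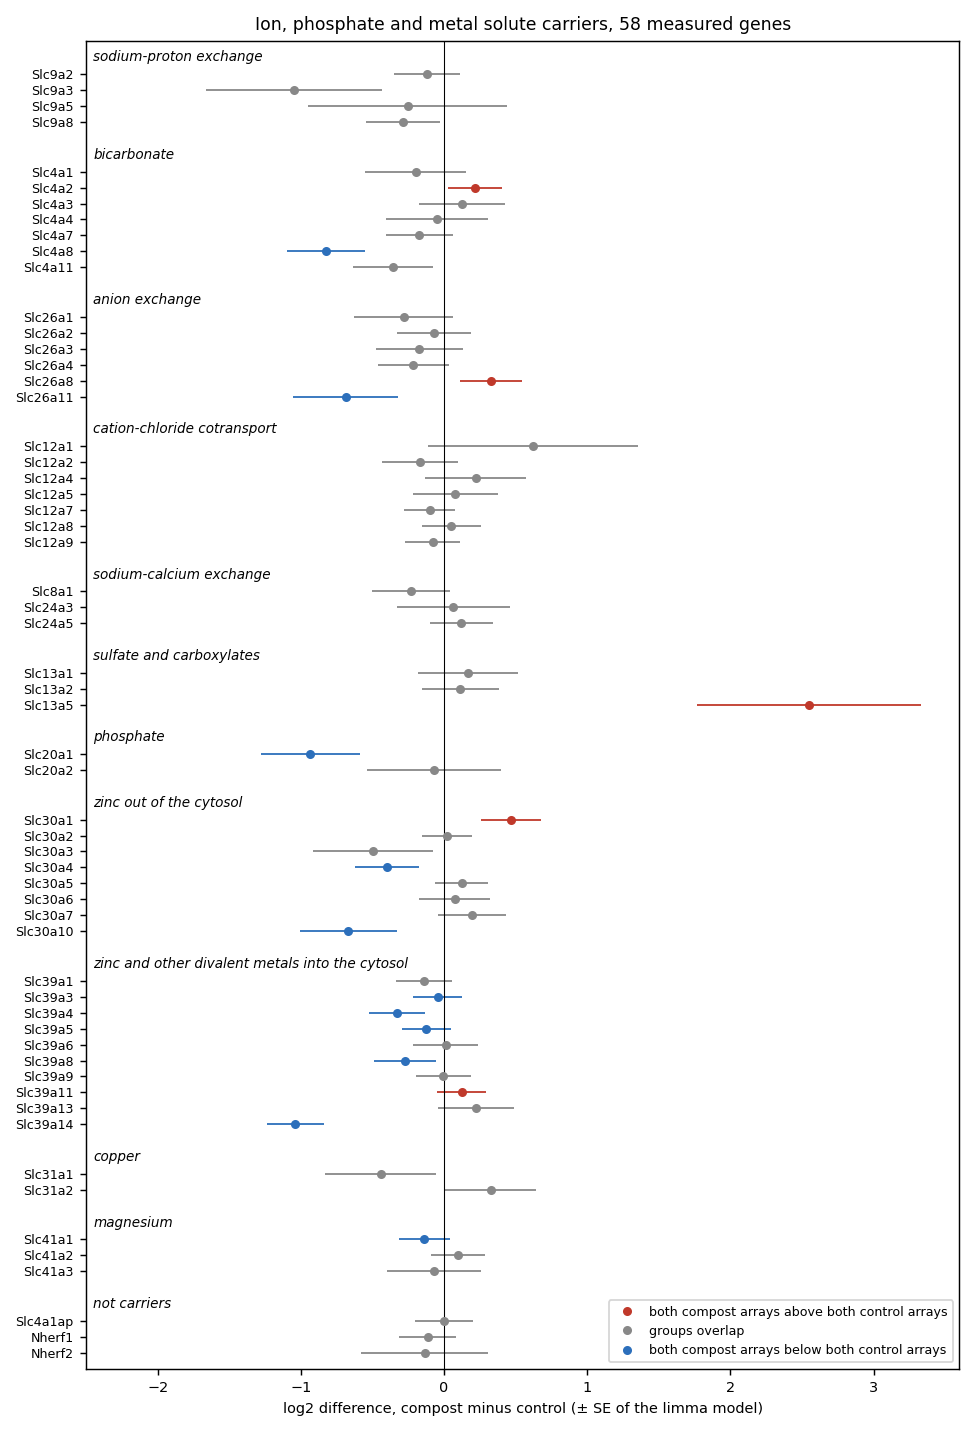
Log2 difference, compost minus control, of 58 of the 60 measured members by ion (points, bars ± SE of the limma model, n = 2 rats per group). Red points are the 5 genes separate with compost higher, blue points are 11 of those separate with compost lower, and grey points overlap; Slc13a5 lies farthest right at 2.55 and Slc9a3 farthest left at -1.05.

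Both measured phosphate carriers, of 5 genes, were lower in compost, and 1 was separate, which with compost lower held for 15.2% of all genes. Slc20a1, a sodium-phosphate cotransporter of most cells, had signals of 8.47 and 12.3 in the compost rats, against 25.2 and 15.04 in the control rats. The groups were separate, and compost was 1.91-fold lower (log2 difference -0.93 ± 0.35 SE, n = 2 each). A second Slc20a1 probe gave 2.61 and 3.53 in compost, against 6.53 and 4.42 in control, with the same order and a difference of -0.82 ± 0.29. The first probe's difference was -0.56 without control replicate 1, the rat with the brightest signal on both probes. Its relative Slc20a2 overlapped between the groups, at 0.181 and 0.0796 in compost and 0.102 and 0.155 in control (-0.07 ± 0.47). The Slc34a family was dim throughout. Slc34a2 encodes the brush border sodium-phosphate cotransporter known from the intestine, and Slc34a1 and Slc34a3 encode the forms of the kidney. None of the 5 probes of these genes was well above background on any array, and their signals lay between 0.00344 and 0.00874.

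Of the zinc carriers that move metal into the cytosol, 10 of 12 were measured. Of these, 7 were lower and 3 higher in compost, with a median of -0.08. The groups were separate with compost lower in 5 of the 10 (Slc39a3, Slc39a4, Slc39a5, Slc39a8 and Slc39a14) and with compost higher in 1, Slc39a11. Over all genes these shares were 15.2% and 12.7%. Slc39a3 overlapped with median and with quantile scaling, Slc39a8 with median scaling, Slc39a5 with normexp background correction and Slc39a11 in the mean of its probes. Of these 6 genes, Slc39a14 was the one with a difference over 1 log2 unit.

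Slc39a14 carries zinc, manganese and iron. Its signals were 0.519 and 0.416 in the compost rats, against 0.960 and 0.950 in the control rats, 2.06-fold lower in compost (log2 difference -1.04 ± 0.20 SE). The nearest rats of the groups were 0.87 log2 units apart. A second probe, made for another transcript record, gave 0.137 and 0.166 in compost, against 0.173 and 0.197 in control. It had the same order and a smaller difference (-0.29 ± 0.20), so that the mean of the probes was -0.67.

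Slc39a4 is the main zinc importer of the brush border. Its signals were 64.7 and 78.1 in compost and 90.3 and 88.2 in control, with no overlap (-0.33 ± 0.19). It was -0.19 without compost replicate 1. Slc39a8, which carries zinc and manganese, had 7.16 and 9.15 in compost, against 10.4 and 9.21 in control, where the nearest rats of the groups almost met (-0.27 ± 0.22). The Slc39a8 difference was -0.0957 without compost replicate 1 and -0.45 without compost replicate 2. The 3 Slc39a8 probes were all lower in compost, from -0.09 to -0.47. Slc39a5, of the basal membrane of enterocytes, had 0.221 and 0.220 in compost and 0.237 and 0.245 in control (-0.13 ± 0.17). Slc39a3 differed by -0.04, and its nearest rats were 0.009 log2 units apart. Slc39a11 stood the other way, at 0.776 and 0.738 in compost and 0.684 and 0.707 in control (0.12 ± 0.17). Slc39a1, a zinc importer of most cells, had 0.146 and 0.128 in compost and 0.140 and 0.163 in control, overlapping (-0.14 ± 0.19). The other members that overlapped were Slc39a6 (0.01), Slc39a9 (-0.01) and Slc39a13 (0.22). Slc39a2 and Slc39a12 were not well above background on any array.

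Among the exporters, 8 of 9 genes were measured, 5 higher and 3 lower in compost, with a median of 0.05. The groups were separate with compost higher in 1 of the 8, Slc30a1, and with compost lower in 2, Slc30a4 and Slc30a10. Over all genes these shares were 12.7% and 15.2%. Slc30a1 sends zinc out of the cell across the basal membrane. Its signals were 4.36 and 5.17 in compost, against 3.14 and 3.75 in control (0.47 ± 0.21 SE, 1.38-fold higher). Slc30a4, of vesicles, lay the other way at 3.24 and 3.75 in compost, against 5.26 and 4.03 in control (-0.40 ± 0.22). The difference of Slc30a4 was -0.21 without control replicate 1. Slc30a10, known in humans as a manganese exporter, had 0.0587 and 0.108 in compost, against 0.134 and 0.120 in control (-0.67 ± 0.34). That difference rested on compost replicate 1, without which it was -0.23, and it was -0.37 with normexp background correction.

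Slc30a5, Slc30a6 and Slc30a7 load zinc into the early secretory pathway. Slc30a5 had 4.99 and 4.33 in compost and 4.35 and 4.19 in control (0.12 ± 0.18), and its other probes gave 0.03 and -0.02. Slc30a7 had 0.937 and 0.668 in compost and 0.672 and 0.711 in control (0.20 ± 0.24), and Slc30a6 differed by 0.07. All of these overlapped, as did Slc30a2, of vesicles, at 5.05 and 4.60 in compost and 4.72 and 4.78 in control (0.02 ± 0.18). Slc30a3, known from synaptic vesicles, had 10.4 and 22.6 in compost, against 24.2 and 19.4 in control. The compost rats of Slc30a3 stood on either side of a control rat (-0.50 ± 0.42), and without compost replicate 1 the difference was 0.06. Slc30a8, the zinc carrier of insulin granules, was not well above background on any array.

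**Figure D2:**
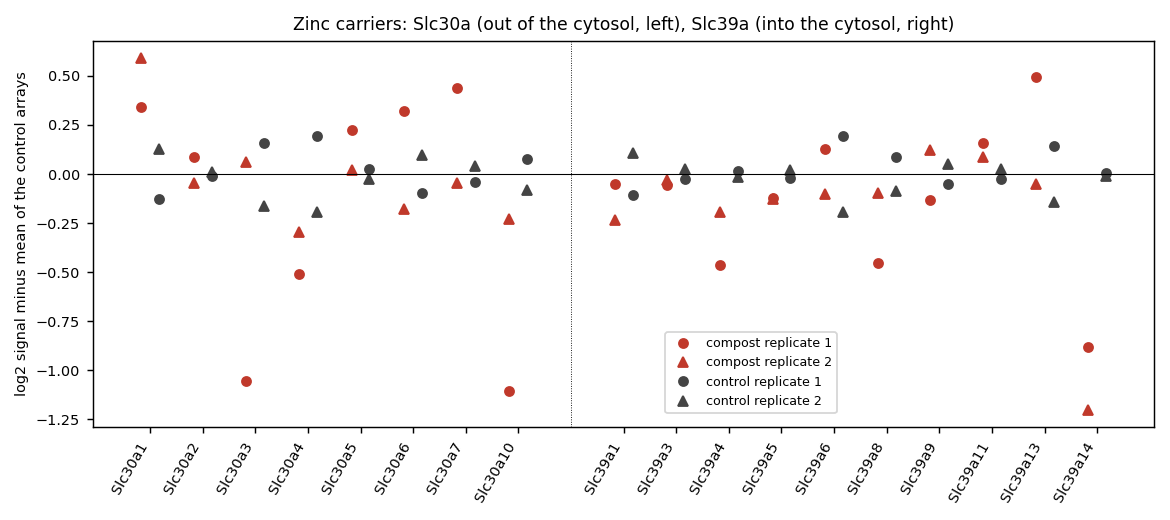
Log2 signal of each array minus the mean of the control arrays for the 8 measured Slc30a genes (left) and 10 measured Slc39a genes (right); red is compost, dark grey is control, circles are replicate 1 and triangles replicate 2. Slc39a14 has both compost rats near -1 and Slc30a1 has both above the control rats, while compost replicate 1 is the lowest array, by far, in Slc30a3 and Slc30a10.

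Zinc and copper are buffered and passed on by other proteins, and 13 of a list of 16 such genes were measured. Of these, 5 were higher and 8 lower in compost, with a median of -0.08 and none passing. The metalloreductase gene Steap2, among those higher, was well above background on both compost arrays and on neither control array, and so entered only through the compost group. Without it, 4 were higher and 8 lower, with a median of -0.09. Of these 12, the groups were separate with compost lower in 2 and with compost higher in 1. Over all genes these shares were 15.2% and 12.7%. Those lower were Atp7b, a copper pump, and Ccs, the copper chaperone of superoxide dismutase (-0.32 ± 0.21 and -0.33 ± 0.21 SE). The metallothionein gene Mt1, whose product binds zinc and which is a target of MTF1, had 48.2 and 90.5 in compost and 85.9 and 69.0 in control, overlapping (-0.22 ± 0.36 SE). Mtf1 itself was the one of the 12 separate with compost higher, at 0.171 and 0.157 in compost and 0.126 and 0.144 in control (0.28 ± 0.19). Of the copper carriers, Slc31a1, the main copper importer, had 1.28 and 1.81 in compost, against 2.85 and 1.5003 in control. Its groups overlapped (-0.44 ± 0.39), and without control replicate 1 the difference was 0.02. Slc31a2, of endosomes, had 0.112 and 0.0641 in compost and 0.0675 and 0.0681 in control (0.33 ± 0.32), overlapping, and turned to -0.08 without compost replicate 1.

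The sodium-proton exchangers were all lower in compost, 6 of 6 measured, with a median of -0.27. Slc9a3, the exchanger that absorbs sodium at the brush border, had 1.78 and 0.734 in compost, against 3.67 and 1.52 in control. The brighter compost rat lay above the dimmer control rat, and the difference (-1.05 ± 0.62 SE) was no larger than the distance between the replicates of either group. It was -0.41 without control replicate 1 and -0.41 without compost replicate 2. Slc9a2, the other brush border exchanger, had 42.4 and 56.0 in compost and 48.6 and 57.6 in control (-0.12 ± 0.23). Its groups overlapped. Slc9a5 and Slc9a8 differed by -0.25 and -0.28 with overlap. Slc9a4, Slc9a7 and Slc9c1, the last listed on the array as Slc9a10, were not well above background on any array.

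The scaffold proteins Nherf1 and Nherf2, listed on the array as Slc9a3r1 and Slc9a3r2, tether Slc9a3 and other carriers below the brush border membrane and carry no ions. Nherf1 had 17.4 and 14.7 in compost and 16.2 and 18.4 in control (-0.11 ± 0.20). Nherf2 differed by -0.14 with overlap, and Slc4a1ap, an adaptor named after its partner, by 0.002. In a list of other brush border scaffold genes, 6 of 6 measured were lower in compost with a median of -0.18. Of these, 4 were separate, which with compost lower held for 15.2% of all genes. None passed. Among them Vil1, which bundles actin in the microvilli, had 70.7 and 85.9 in compost, against 101.7 and 86.9 in control (-0.27 ± 0.21 SE).

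Markers of absorptive enterocytes, Vil1 among them, lay in the same direction. Alpi and Lct, which define the cell type, were well above background on both control arrays and on neither compost array, and so entered only through the control group. The other 7 markers were all lower in compost, with a median of -0.46, and none passed. The groups were separate in 5 of them, which with compost lower held for 15.2% of all genes. Apoa4 had the largest difference of the 7 (-1.60 ± 0.39 SE), and Fabp2 and Slc5a1 overlapped. The part of enterocyte content in the values of the brush border carriers was not tested. In a bulk sample fewer enterocytes cannot be told apart from less of an RNA in each. All 5 measured smooth muscle markers were higher in compost, with a median of 0.15. Of these, Actg2 was separate, and the others overlapped. Among B and plasma cell markers, Ms4a1 was well above background on both compost arrays and on neither control array. It entered only through the compost group. The other 4 B and plasma cell markers were all higher and separate, with a median of 1.53, and none passed. Over all genes, 12.7% were separate with compost higher. The ileal markers Fabp6 and Slc10a2 were well above background on all arrays, and so were all 4 measured markers of the proximal small intestine. Of these 4, Fabp1 and S100g were separate with compost lower (-0.27 and -1.12). Cybrd1 and Slc40a1 overlapped (0.43 and -0.03), and the median of the 4 was -0.15.

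The bicarbonate carriers had 7 of 10 genes measured, 2 higher and 5 lower in compost, with a median of -0.17. The groups were separate with compost higher in 1 and with compost lower in 1. Over all genes these shares were 12.7% and 15.2%. Slc4a8, which exchanges sodium and bicarbonate against chloride, had 0.0927 and 0.135 in compost, against 0.224 and 0.174 in control. The groups were separate (-0.82 ± 0.27 SE, 1.77-fold lower). The difference was smaller at -0.57 with normexp background correction, and the range without 1 array was -1.09 to -0.55. Slc4a2, the chloride-bicarbonate exchanger of most cells, was the one separate with compost higher, at 1.26 and 1.06 against 1.01 and 0.981 in control (0.21 ± 0.19), and its difference was 0.091 without compost replicate 1 and 0.34 without compost replicate 2. The basolateral sodium-bicarbonate cotransporter gene Slc4a4 had 4.51 and 8.51 in compost and 5.88 and 6.99 in control, so that the compost rats enclosed the control rats (-0.05 ± 0.36). Slc4a7, another cotransporter of this kind, had 0.427 and 0.593 in compost and 0.584 and 0.550 in control (-0.17 ± 0.23). Slc4a1, the anion exchanger of red blood cells, had 0.0426 and 0.0232 in compost and 0.0406 and 0.0321 in control (-0.20 ± 0.35). Both overlapped, and Slc4a3 and Slc4a11 differed by 0.13 and -0.35. Slc4a5, Slc4a9 and Slc4a10 were not well above background on any array.

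Of the Slc26a anion exchangers, 6 of 8 were measured, 1 higher and 5 lower in compost, with a median of -0.19. The groups were separate with compost higher in 1 and with compost lower in 1. Over all genes these shares were 12.7% and 15.2%. Slc26a3, the brush border chloride-bicarbonate exchanger, had 4.19 and 4.46 in compost, inside the control values of 3.74 and 6.35 (-0.17 ± 0.31 SE). Its difference was 0.21 without control replicate 2. The sulfate carrier gene Slc26a2 had 0.214 and 0.299 in compost and 0.236 and 0.297 in control (-0.07 ± 0.26). It overlapped, as did Slc26a1 (-0.28) and Slc26a4, the iodide and bicarbonate exchanger pendrin (-0.21). Slc26a11 was separated downward, at 0.0633 and 0.123 in compost, against 0.131 and 0.154 in control (-0.69 ± 0.37). Slc26a8, known from testis, was separated upward, at 0.110 and 0.101 in compost, against 0.0735 and 0.0957 in control (0.33 ± 0.22), and leaving out control replicate 1 gave 0.14 and leaving out control replicate 2 gave 0.52. Slc26a5 and Slc26a7 were not well above background on any array.

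The cation-chloride cotransporters overlapped throughout. Of 7 measured genes, 4 were higher and 3 lower in compost, with a median of 0.05 and no separation in either direction. Slc12a2, which brings chloride into secreting cells, had 2.67 and 1.75 in compost and 2.37 and 2.49 in control (-0.17 ± 0.27 SE). Slc12a7, which lets potassium and chloride out, had 7.17 and 7.58 in compost and 7.52 and 8.29 in control (-0.10 ± 0.18), and its 5 probes gave -0.02 to -0.37. Slc12a4, Slc12a5, Slc12a8 and Slc12a9 differed by 0.22, 0.08, 0.05 and -0.08. Slc12a1, the cotransporter of the kidney, stood just inside the filter with 2 arrays well above background, at 0.0147 and 0.0631 in compost and 0.0165 and 0.0236 in control (0.62 ± 0.73). The kidney carrier gene Slc12a3 was not well above background on any array.

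Chloride and fluid secretion rests on other genes too. Of a list of 19, 16 were measured, 4 higher and 12 lower in compost, with a median of -0.17 and none passing. The groups were separate with compost lower in 6 and with compost higher in 2. Over all genes these shares were 15.2% and 12.7%. Prkg2, the cyclic GMP kinase through which guanylin peptides act on the brush border, had 0.415 and 0.365 in compost, against 1.06 and 0.551 in control (-0.97 ± 0.36 SE). The peptide gene Guca2b had 11.8 and 16.2 in compost, against 67.3 and 18.1 in control, where control replicate 1 stood far above the others (-1.34 ± 0.66). The hormone gene Sct had 78.8 and 102 in compost, against 57.7 and 69.9 in control (0.50 ± 0.23). The chloride channel gene Cftr overlapped (-0.20 ± 0.27). In the list of sodium pump and epithelial sodium channel genes, 6 of 11 were higher and 5 lower, with a median of 0.09 and none passing. The groups were separate with compost lower in 1, the kinase gene Sgk1 (-0.47 ± 0.32). They were separate with compost higher in 2, among them the pump regulator gene Fxyd3 (0.22 ± 0.19). Over all genes these shares were 15.2% and 12.7%. Among 6 measured carbonic anhydrases 4 were higher, with a median of 0.37. In each of these 4, control replicate 1 was the lowest array, and in the 2 that were lower it was the highest. Car1 had 2.99 and 3.08 in compost, against 0.184 and 4.37 in control, and overlapped. Car12 was not well above background on control replicate 1. Car4 was the 1 of the 6 separated upward, at 34.9 and 32.5 in compost, against 17.0 and 28.4 in control (0.62 ± 0.30). Over all genes, 12.7% were separate with compost higher.

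The Slc13a carriers, which take up sulfate, dicarboxylates and citrate with sodium, had 3 of 4 genes measured, all higher in compost with a median of 0.16. Slc13a5, the citrate carrier known from the liver, had the largest difference of the measured members on the scale used here, though not under normexp background correction. Its signals were 0.160 and 0.0436 in compost, against 0.008865 and 0.0230 in control (2.55 ± 0.78 SE). It was not well above background on the array of control replicate 1, so that its difference rests in part on a value near background, and it was 1.86 without that array. Under normexp, whose offset of 50 pulls dim values together, the difference was 0.84, smaller in size than those of Slc9a3 (-0.99), Slc39a14 (-0.92) and Slc20a1 (-0.89), and without compost replicate 1 it was 1.61. The brush border carriers overlapped. Slc13a1, the sulfate carrier, had 28.8 and 19.1 in compost and 16.4 and 26.8 in control (0.16 ± 0.35), and Slc13a2, the dicarboxylate carrier, had 77.8 and 116 in compost and 80.8 and 95.6 in control (0.11 ± 0.27). Slc13a3 was well above background on 1 array.

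**Figure D3:**
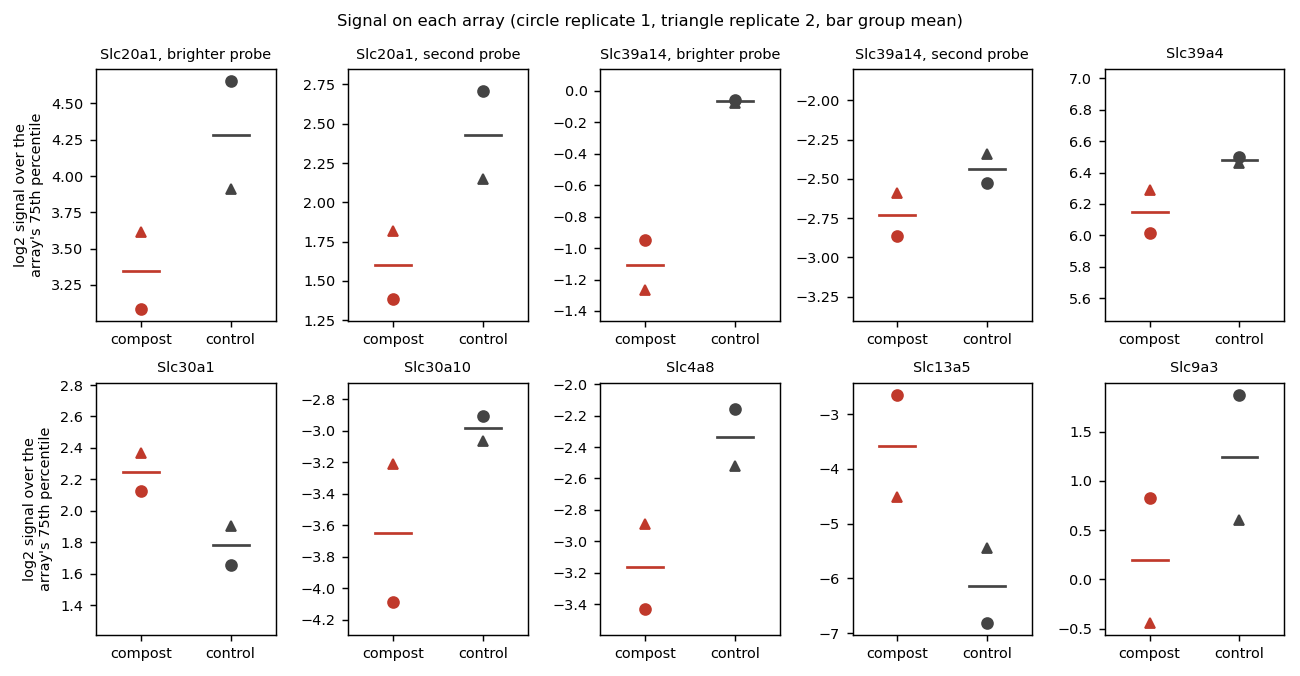
Log2 signal over the array's 75th percentile on each array for 8 members, with both probes of Slc20a1 and Slc39a14; compost is left, control right, circles are replicate 1, triangles replicate 2 and bars group means, and each panel has its own scale. The groups do not overlap except in Slc9a3, where compost replicate 1 lies above control replicate 2.

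Sodium-calcium exchangers were mostly dim. Of 8 genes, 3 were measured, 2 higher and 1 lower in compost, with a median of 0.06 and no separation. Slc8a1, the exchanger of heart and smooth muscle, had 0.0388 and 0.0286 in compost and 0.0460 and 0.0332 in control (-0.23 ± 0.27 SE). A second probe of Slc8a1, just inside the filter with 2 arrays, gave -1.18 ± 0.77, carried by control replicate 1 at 0.0929. Slc24a3 had 0.645 and 0.344 in compost and 0.365 and 0.556 in control (0.06 ± 0.40), and Slc24a5 differed by 0.12. Both overlapped. Just outside the filter, with 1 array well above background, were Slc24a1, Slc24a2, Slc24a4 and Slc13a3, and second probes of Slc24a3, Slc8a1 and Slc39a13. Slc8a2 and Slc8a3 were not well above background on any array.

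All 3 magnesium carriers were measured, 1 higher and 2 lower in compost, with a median of -0.07. Slc41a1, which sends magnesium out of cells, had 1.25 and 1.17 in compost and 1.28 and 1.39 in control, with the nearest rats 0.03 log2 units apart (-0.14 ± 0.18 SE) and overlap under median scaling and normexp. Without 1 array its difference was -0.20 to -0.0774. Slc41a2 had 1.76 and 1.87 in compost and 1.82 and 1.58 in control (0.10 ± 0.19), and overlapped, as did Slc41a3 (-0.07). Of 9 other measured genes of magnesium handling, 5 were higher and 4 lower, with a median under 0.01. The groups were separate with compost lower in 1 and with compost higher in 2. Over all genes these shares were 15.2% and 12.7%. Cnnm2, the one lower, had 0.703 and 0.688 in compost, against 0.937 and 1.02 in control (-0.49 ± 0.18). Those higher were Nipa2, at 0.927 and 0.811 in compost and 0.807 and 0.313 in control (0.79 ± 0.48), and Magt1 (0.17 ± 0.18). The absorptive channel gene Trpm6 overlapped (0.16 ± 0.32). Of 4 measured genes of phosphate handling beside the carriers, 3 were higher with a median of 0.11, and Xpr1, the phosphate exporter, had 0.0459 and 0.0578 in compost and 0.0433 and 0.0453 in control (0.22 ± 0.20).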

How the data were processed

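The authors deposited 1 Agilent Feature Extraction 9.1.3.1 file per array, per the file headers, with a processed spot intensity (detrended and background-subtracted, linear, not scaled between arrays), raw mean and local background intensities, and spot flags. Their deposited value table holds the same processed intensity to 3 significant digits. Control spots (1639 of 45018) and outlier spots were left out, spots of a probe were averaged as log2, and each array's 75th percentile over gene probes was subtracted. Kept were the 28415 probes that 2 or more arrays flagged as well above background. The groups were tested with limma (3.58.1, under R 4.3.3; lmFit, eBayes, two-sided, Benjamini-Hochberg over all kept probes, threshold 0.05), after tests on simulated data. Counts over genes use the probe with the brightest mean.

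Array names were updated through the GRCr8 gene table, used for names: 68 of the 107 member probes matched by accession and 39 by symbol. Antisense, paralog and cross-hybridising signal cannot be told apart here. All arrays lay on 1 slide, with position following group, so position and group cannot be told apart. The members and gene lists were chosen with earlier results of these data known. Values per array are given for members that passed, for up to 8 per direction with the widest gap between groups, for the brightest of each ion group and for listed intestinal carriers; other genes of the lists are the 3 with the smallest p at most. Slc12a1, Slc26a11, Mt1, Mtf1, Cftr and Trpm6, given beyond this rule, were chosen after their values were seen. Results of some members are not reported here.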

Additional observations from a re-analysis of the deposited data

How the results depend on the processing

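In the 12 alternatives with a p for members, none passed limma's test; the lowest adjusted p of a member was 0.364, without control replicate 2. Over all probes, 1 passed with normexp background correction and 0 to 2 without 1 array, while 613 to 2938 had an unadjusted p under 0.05, against 913. Nothing in the labels pairs rats by replicate number, and deviations of same-numbered arrays did not correlate (r = -0.036 over probes); the replicate block gave 0 passing probes and 901 at an unadjusted p under 0.05. Under other scaling, background, filter, probe rule or source, 9 to 15 members were separate with compost lower and 4 to 7 with compost higher, not all of them the same genes: of the original 17, between 14 and 17 remained. Without 1 array the counts were 19 to 29 and 8 to 19, since 3 arrays separate more readily. The median of all members was -0.13 to -0.03 without 1 array. Medians by ion moved as follows, and the cause was not tested: phosphate to -0.13 without a filter, which adds the dim Slc34a genes, and zinc import to -0.0478 with median scaling, -0.0526 without a filter and -0.0612 with normexp. Without 1 array they ranged from -0.39 to 0.071 for anion exchange, -0.39 to 0.18 for sodium-calcium exchange, -0.047 to 0.16 for zinc export, -0.11 to -0.0697 for zinc import, -0.19 to 0.20 for magnesium, -0.00845 to 0.52 for sulfate and carboxylates, -0.0797 to 0.16 for cation-chloride cotransport, -0.29 to 0.17 for copper, -0.41 to -0.0769 for bicarbonate, -0.37 to -0.16 for sodium-proton exchange and -0.67 to -0.34 for phosphate. Cation-chloride cotransport was also -0.0271 with normexp and -0.0143 where all 4 arrays had to be well above background. Leaving out 1 array turned the sign of 19 named members. All of them overlapped between groups, which is fixed in advance, since a separate gene cannot turn its sign in this way. Their ranges were -0.32 to 0.080 for Slc9a2, -0.64 to 0.24 for Slc4a1, -0.51 to 0.41 for Slc4a4, -0.41 to 0.065 for Slc4a7, -0.31 to 0.17 for Slc26a2, -0.55 to 0.21 for Slc26a3, -0.48 to 0.13 for Slc12a2, -0.47 to 0.00647 for Slc8a1, -0.39 to 0.52 for Slc24a3, -0.19 to 0.52 for Slc13a1, -0.18 to 0.40 for Slc13a2, -0.66 to 0.52 for Slc20a2, -0.0463 to 0.0875 for Slc30a2, -1.06 to 0.0594 for Slc30a3, -0.0484 to 0.44 for Slc30a7, -0.91 to 0.0201 for Slc31a1, -0.0795 to 0.73 for Slc31a2, -0.00758 to 0.20 for Slc41a2 and -0.23 to 0.00818 for Nherf1. The number of arrays limits the precision.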
